A study of Mus musculus with 48 samples.

Results

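Complement genes were followed in macrophages washed from the airspaces of the lung, a total of 9 genes chosen by name out of 24411 in the deposited table, over 24 male mice. The genes are C1qa, C1qb and C1qc (the 3 chains of C1q), C4b, C3, Cfb, Cfp, and the receptor genes C3ar1 and C5ar1. All 9 were found in the table and all 9 passed the filter on low counts that left 12634 genes for testing. The 12 wild type (WT) mice and the 12 mice lacking Siglec-F (KO), a sialic acid-binding receptor of resident alveolar macrophages encoded by Siglecf, each formed 4 groups of 3. One group per genotype was naive, labelled as saline control at day 0, and the other groups had received bleomycin, a DNA-damaging drug that injures and scars the lung, into the trachea at 2.5 units/kg and were sampled 7, 14 or 21 days later. The sources used here give no age, strain or making of the KO allele, and they do not say how macrophages were separated from other lavage cells. The study asked what Siglec-F does in these cells while fibrosis develops.

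Complement is a cascade of serum and tissue proteins that tags targets for uptake and draws in leukocytes. C1q recognises antibody complexes and dying cells and starts the classical route through C4 and C2, factor B (Cfb) and properdin (Cfp) build and hold the alternative route, and both routes cleave C3. The released fragments C3a and C5a act on the receptors encoded by C3ar1 and C5ar1. The liver makes most circulating C3 and C4, whereas macrophages are a main source of C1q and properdin, and strong C1q expression is known for interstitial and monocyte-derived lung macrophages more than for resident alveolar macrophages.

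The C1q genes lie side by side on the minus strand of mouse chromosome 4 (mm10, GENCODE M21 annotation), C1qb at chr4:136880129-136886187, C1qc at chr4:136889804-136893065 and C1qa at chr4:136895917-136898803. C4b (chr17:34728380-34743882) and Cfb (chr17:34856374-34862518) share a stretch of chromosome 17, and C3 is on the same chromosome at chr17:57203970-57228136. C3ar1 is at chr6:122847138-122856161, C5ar1 at chr7:16246743-16259540 and Cfp at chrX:20925454-20931555, all on the minus strand. RefSeq promoter windows, of 250 bases before to 50 after a gene's start in GRCm38.p6, were matched for 6 of the 9 genes, leaving out C1qa, Cfb and C4b. The 250 bases before the start of C1qb (chr4:136886201-136886450), C1qc (chr4:136892915-136893164) and C3ar1 (chr6:122856158-122856407) are shown because these genes moved together, and those of C5ar1 (chr7:16259339-16259588) because it moved the other way. All 4 are given 5′ to 3′ on the gene's own minus strand, and capitals mark matches to the motifs named after them.
C1qb: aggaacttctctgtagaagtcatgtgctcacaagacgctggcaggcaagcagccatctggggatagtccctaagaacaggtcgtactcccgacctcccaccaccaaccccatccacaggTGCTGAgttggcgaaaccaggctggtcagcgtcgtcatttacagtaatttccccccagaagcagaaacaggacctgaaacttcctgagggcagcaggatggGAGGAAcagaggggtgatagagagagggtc
C1qc: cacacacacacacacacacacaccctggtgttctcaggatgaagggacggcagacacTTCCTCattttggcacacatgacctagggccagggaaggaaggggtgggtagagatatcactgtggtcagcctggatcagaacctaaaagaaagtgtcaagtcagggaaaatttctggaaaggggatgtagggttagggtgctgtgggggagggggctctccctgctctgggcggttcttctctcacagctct
C3ar1: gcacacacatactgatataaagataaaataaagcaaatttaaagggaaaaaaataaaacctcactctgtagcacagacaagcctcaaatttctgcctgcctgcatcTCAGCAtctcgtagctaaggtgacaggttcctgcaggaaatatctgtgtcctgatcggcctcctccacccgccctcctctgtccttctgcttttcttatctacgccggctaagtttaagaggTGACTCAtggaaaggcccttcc
C5ar1: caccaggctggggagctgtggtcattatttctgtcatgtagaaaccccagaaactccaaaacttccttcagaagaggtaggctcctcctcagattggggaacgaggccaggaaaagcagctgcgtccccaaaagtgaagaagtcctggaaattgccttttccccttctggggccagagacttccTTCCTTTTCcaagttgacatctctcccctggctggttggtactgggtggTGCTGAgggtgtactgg
Each motif was searched on both strands of the 300-base windows, and no match overlapped another. GAGGAA, a core recognised by the macrophage factor PU.1, occurred in 3 of the 6 windows (C1qb 30 and C1qc 193 bases before the start, and Cfp) and in 28.3% of all 32851 windows. TGCTGA, a core of MAF recognition elements, occurred in 4 of 6 (C1qb at 131, C3 at 182, C3ar1 at 144 and C5ar1 at 17 bases before the start) and in 19.5% of all. The AP-1 site TGACTCA was found 22 bases before the C3ar1 start and in 5.2% of all windows. GAAANNGAA, a core of interferon-stimulated response elements, was found 66 bases before the C5ar1 start and in 8.56% of all. The C/EBP pattern TTGCNNAA matched in the C3 window (10.8% of all) and the STAT pattern TTCNNNGAA in none of the 6 (8.3% of all). These are matches of letters only, and no measurement of binding was made.

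Library totals ran from 24877055 to 47457084 expected counts. Siglecf had 0 to 25 counts in KO mice and 2631 to 20368 in WT mice. On the first principal component of log2 CPM (counts scaled to a common library size), which held 57.5% of the variance, naive mice lay between -59.2 and -54 and most bleomycin mice between 14.1 and 38.7. KO day 21 mouse 1 (-20.4), KO day 14 mouse 3 (-15.8) and KO day 14 mouse 2 (1.63) lay between the naive mice and that range. Changes that rest on these KO mice are also given without them for the genes described. Resident alveolar macrophage markers were present in every mouse, with a summed level of 25390 to 32290 CPM in naive mice and 9005 to 27060 CPM after bleomycin. Markers of fibroblasts stayed at or under 3.41 CPM in sum and those of B cells at or under 5.53 CPM.

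In naive mice the complement transcripts fell into a high and a near-silent class. Per kilobase of exon, C5ar1 was the highest of the 9 genes in both genotypes (201 ± 33.2 CPM per kb in WT and 180 ± 10.7 in KO, SD, n = 3), followed by Cfp, C3 and Cfb. C5ar1 alone made up 46.5% of the 9-gene sum in WT and 47.6% in KO mice, and the C1q chains together 0.988% and 1.16%. C1q, C3ar1 and C4b held 8 to 147 counts per naive mouse, so their naive levels and every fold change against them are the least precise of the set. After bleomycin the order turned over. C1q chains made up 79.1% ± 3.37 of the sum at day 7, 78.7% ± 3.56 at day 14 and 71.4% ± 1.77 at day 21 in WT mice, and 80.1% ± 6.5, 57.7% ± 16.2 and 60.3% ± 19.7 in KO mice. C1qa was the highest gene per kilobase in every bleomycin group except KO day 21, where C1qb led.

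**Figure D1:**
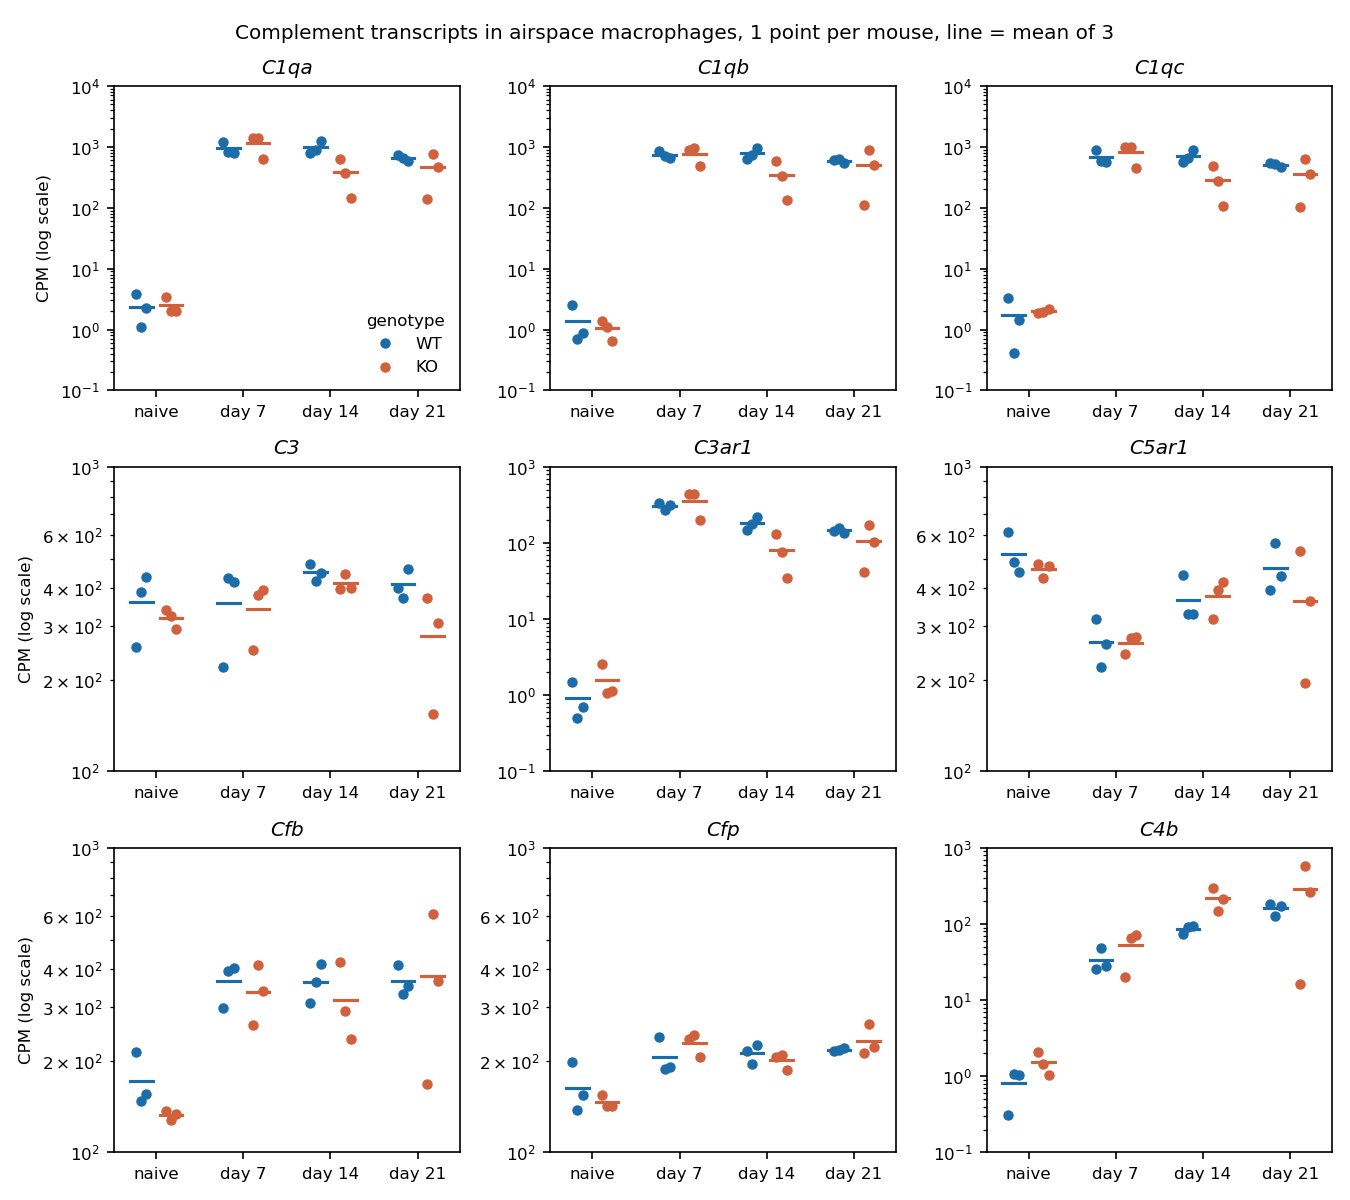
CPM (log axis) of the 9 genes in each mouse, by day and genotype, with 1 point per mouse and a line at the mean of 3. The C1q chains, C3ar1 and C4b move from about the bottom of their axes in naive mice to 16.2 CPM or more in every bleomycin mouse, whereas C3, C5ar1, Cfb and Cfp stay within 1 decade.

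Bleomycin raised 7 of the 9 genes at every day in both genotypes, namely the 3 C1q chains, C3ar1, C4b, Cfb and Cfp. In WT mice edgeR's quasi-likelihood test with Benjamini-Hochberg adjustment over all genes (calls at an adjusted p under 0.05) called 7 members higher at day 7, 14 and 21, where 20.2%, 18.7% and 18.8% of all genes were called higher. In KO mice it was again 7 at each day, with 19.7%, 12.0% and 15.0% of all genes called higher. Without KO day 14 mouse 3 or KO day 21 mouse 1 these 7 were still called at that day, and without KO day 14 mouse 2 all but Cfp were. C5ar1 was the only member called lower, at day 7 in each genotype, where 15.3% of all genes fell in WT and 14.4% in KO mice. At the later days 0 members were called lower, beside 13.4% and 13.7% of all genes in WT and 4.84% and 6.89% in KO mice at days 14 and 21, and DESeq2 and limma-voom also called 0. The nearest was C5ar1 in WT mice at day 14, at an unadjusted p of 0.0496 (log2 fold change -0.50, adjusted p = 0.118). The median log2 fold change of the members was 5.31, 6.65 and 7.41 at the 3 days in WT and 5.12, 5.67 and 6.06 in KO mice, against medians between -0.00285 and 0.0223 over all genes.

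**Figure D2:**
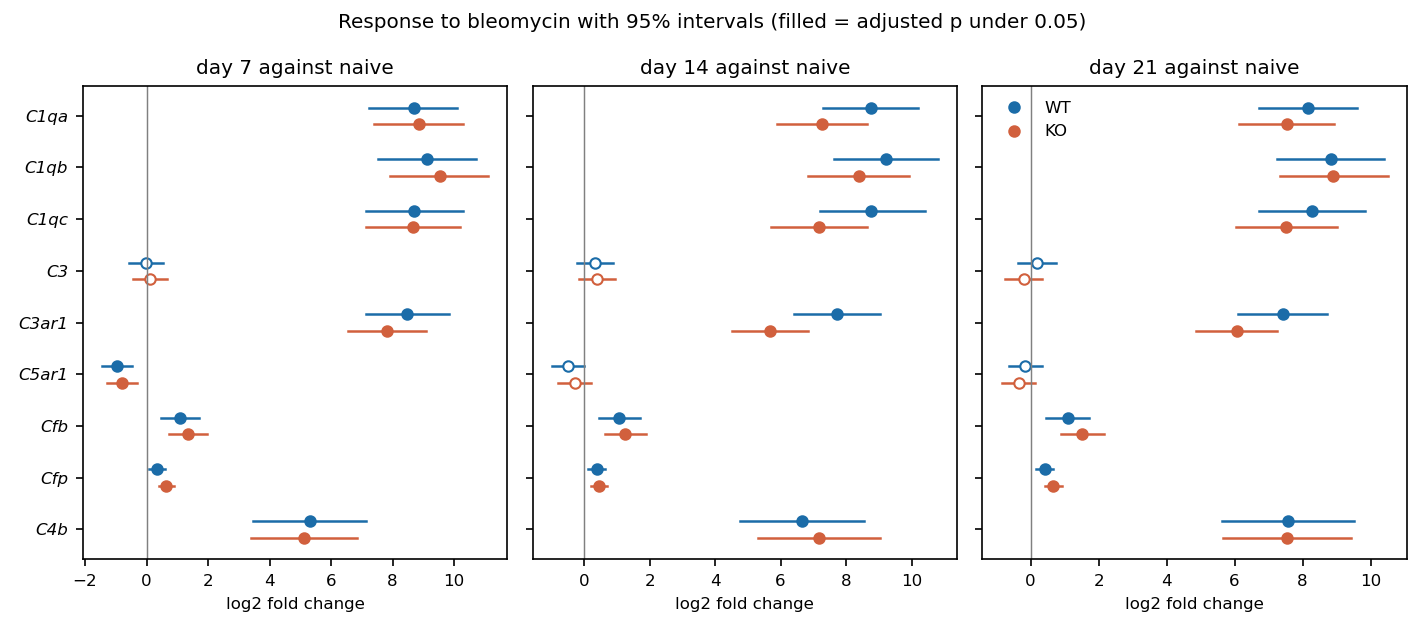
Log2 fold change of each bleomycin day against naive mice of the same genotype (x axis), with 95% intervals, for the 9 genes (rows) in WT and KO mice. The C1q chains, C3ar1 and C4b lie between 5.12 and 9.53, Cfb and Cfp just right of 0, and C5ar1 left of 0 at day 7.

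The C1q chains rose from traces to among the most abundant complement transcripts. C1qa, which encodes the A chain, was at 3.77, 1.09 and 2.22 CPM in the naive WT mice and at 1207, 826 and 803 at day 7, 797, 901 and 1266 at day 14 and 725, 669 and 596 at day 21. In KO mice it was at 3.38, 2.05 and 2.03 CPM when naive and at 1417, 1392 and 637, then 634, 378 and 144.5, then 140, 776 and 464 at the 3 days. Every bleomycin mouse was far above every naive mouse of its genotype, and the WT mice of each day were close together while the KO mice of days 14 and 21 were spread over several-fold. The log2 fold change of C1qa against naive was 8.68 (SE 0.703) at day 7, 8.75 at day 14 and 8.17 at day 21 in WT and 8.85, 7.27 and 7.53 in KO mice, with edgeR adjusted p-values of at most 2.54e-07. The KO day 14 change of C1qa was 7.28 without mouse 2 and 7.67 without mouse 3, and the KO day 21 change was 7.96 without mouse 1. A log2 change of 8.68 is a 411-fold rise (95% interval 149 to 1130).

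C1qb and C1qc, the other two chains, followed C1qa closely. C1qb rose from 0.705 to 2.56 CPM in naive WT mice to 649 to 840 at day 7, 640 to 976 at day 14 and 538 to 638 at day 21. In KO mice C1qb was at 0.646 to 1.40 CPM when naive and at 477 to 963, 135 to 584 and 112 to 894 at the 3 days. C1qc ran from 0.411 to 3.30 CPM in naive WT mice and from 463 to 904 CPM in the WT bleomycin mice. For these chains, too, no bleomycin mouse overlapped a naive one. In KO mice C1qc was at 1.86 to 2.15 CPM when naive and at 105 to 1008 after bleomycin. Their log2 fold changes against naive ran from 8.38 to 9.53 for C1qb and from 7.18 to 8.77 for C1qc over the 6 comparisons, with edgeR adjusted p-values of at most 5.51e-07.

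The proportions of the chains were not fixed. C1qc gave 0.705 to 0.817 reads per C1qa read in all 18 bleomycin mice. The ratio of C1qb to C1qa reads was 0.696, 0.845 and 0.808 in WT mice at day 7, 0.803, 0.806 and 0.771 at day 14 and 0.830, 0.954 and 0.903 at day 21. In KO mice it was 0.628, 0.692 and 0.749 at day 7, 0.920, 0.870 and 0.932 at day 14 and 0.798, 1.15 and 1.08 at day 21. The KO and WT mice of day 14 did not overlap in this ratio, and those of days 7 and 21 did. The ratio is given as a description and was not tested.

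C4b encodes a C4 protein of the classical route and stood higher at each later time in WT mice. It was at 0.311, 1.06 and 1.05 CPM in naive WT mice, then at 25.5, 47.9 and 28.3 at day 7, 75.2, 90.3 and 93.5 at day 14 and 185, 130 and 174 at day 21. The WT groups of successive times did not overlap. In KO mice C4b was at 2.07, 1.47 and 1.04 CPM when naive, 19.9, 66.6 and 72.8 at day 7, 299.8, 148 and 216 at day 14 and 16.2, 579 and 261 at day 21. KO day 21 mouse 1, which lay between the naive and most bleomycin mice on the first principal component, was the lowest of all 18 bleomycin mice. KO day 21 mouse 2 was the highest. Against naive mice C4b rose by 5.31 (SE 0.883), 6.65 and 7.57 on the log2 scale in WT and 5.12, 7.17 and 7.54 in KO mice (edgeR adjusted p of at most 1.03e-04). The KO day 14 change of C4b was 7.39 without mouse 2 and 7.19 without mouse 3, and the KO day 21 change was 8.10 without mouse 1. With limma-voom the adjusted p was 0.173, 0.0899 and 0.0559 in WT mice at the 3 days and 0.0641 in KO mice at day 7, which ended those calls. The near-identical copy C4a held 40 counts over all 24 mice, and the sources used here do not say how reads shared by both copies were assigned. The C4b values may hold reads of either.

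C3, the central component, was well expressed throughout and was called in none of the comparisons. Its CPM was 256, 388 and 437 in naive WT mice, 220, 432 and 417 at day 7, 481.9, 421 and 448 at day 14 and 402, 371 and 462 at day 21. The KO mice were at 338, 325 and 294 when naive, 251, 380 and 396 at day 7, 399, 446.4 and 402 at day 14 and 371, 154.5 and 308 at day 21. All groups overlapped their neighbours in the order of means, from WT day 14 (450 ± 30.5) to KO day 21 (278 ± 111). The intervals of its log2 change against naive ran from -0.747 at the lowest to 0.93 at the highest, so changes larger than these were outside the 95% intervals. In KO mice at day 14, where the 3 mice lay above the 3 naive ones, a fit to the compared groups alone called C3 higher (log2 fold change 0.374, adjusted p = 0.0208), whereas the 8-group fit gave a change of 0.38 with an adjusted p of 0.361.

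Cfb and Cfp, which serve the alternative route, rose by smaller amounts. Cfb, the protease part of the C3 convertase, was at 214, 147 and 155 CPM in naive WT mice and at 297 to 414 CPM in the 9 WT bleomycin mice. In KO mice it was at 136, 128 and 133 CPM when naive, 261, 411 and 340 at day 7, 422, 291 and 236 at day 14 and 168, 607 and 366 at day 21. No bleomycin mouse overlapped the naive mice of its genotype. Cfb rose 2.12-fold, 2.11-fold and 2.13-fold in WT mice (log2 1.09, 1.08 and 1.09, SE 0.301, adjusted p of at most 0.00963) and 2.55-fold, 2.39-fold and 2.87-fold in KO mice (adjusted p of at most 0.00622). Without KO day 14 mouse 1 the KO day 14 call was lost (log2 0.99, adjusted p = 0.0507), as was KO day 21 in a fit to the compared groups alone (adjusted p = 0.0556).

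Cfp encodes properdin, which stabilises that convertase. It was at 198, 138 and 154 CPM in naive WT mice and at 240, 188 and 190 at day 7, 216, 195 and 225 at day 14 and 215.5, 217 and 221 at day 21. WT mouse 1 of the naive group overlapped the mice of days 7 and 14. In KO mice Cfp was at 154, 142 and 142 CPM when naive, 236, 243 and 206 at day 7, 205, 210 and 187 at day 14 and 212.5, 264 and 222 at day 21, with no overlap with the naive mice. The log2 change was 0.34 (SE 0.121, adjusted p = 0.0346), 0.38 (0.0215) and 0.42 (0.012) at the 3 days in WT and 0.65 (3.28e-04), 0.46 (0.0117) and 0.67 (4.00e-04) in KO mice. The WT calls ended without naive mouse 2 (adjusted p = 0.181, 0.118 and 0.0752) or naive mouse 3 (0.116, 0.0799 and 0.052), and some without WT day 7 mouse 1 (0.198) or WT day 14 mouse 1 (0.053) or mouse 3 (0.0843). The KO day 14 call ended without KO day 14 mouse 2 (0.0531), and a fit to the compared groups alone did not call WT day 7 (0.191) or day 14 (0.0775).

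The anaphylatoxin receptors moved in opposite directions at day 7. C3ar1, the receptor for C3a, was at 1.51, 0.499 and 0.713 CPM in naive WT mice, 338, 272 and 315 at day 7, 150.5, 179 and 219 at day 14 and 146, 156 and 137 at day 21. The KO mice were at 2.55, 1.06 and 1.13 CPM when naive, 435.5, 441 and 203 at day 7, 132, 75.9 and 35.1 at day 14 and 41.4, 175 and 102 at day 21. All bleomycin mice were above all naive mice, and in both genotypes day 7 was the highest group. The log2 fold change against naive was 8.48 (SE 0.645), 7.73 and 7.41 in WT and 7.82, 5.67 and 6.06 in KO mice (edgeR adjusted p of at most 6.02e-07). The KO day 14 change of C3ar1 was 5.71 without mouse 2 and 6.03 without mouse 3, and the KO day 21 change was 6.45 without mouse 1.

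C5ar1, the receptor for C5a, was at 613, 488 and 450 CPM in naive WT mice, 318, 220 and 262 at day 7, 442, 330 and 329 at day 14 and 394, 562 and 437 at day 21. The KO mice were at 481.7, 431 and 474.4 CPM when naive, 244, 274 and 275 at day 7, 317, 393 and 420 at day 14 and 529, 195 and 362 at day 21. The mice of day 7 and those of day 14 lay wholly below the naive ones in each genotype. At day 7 C5ar1 fell by 0.96 (SE 0.239, adjusted p = 0.0038) on the log2 scale in WT and by 0.81 (SE 0.238, adjusted p = 0.0124) in KO mice. At day 14 the change was -0.50 in WT and -0.30 in KO mice and was not called (edgeR adjusted p = 0.118 and 0.442). Without KO day 7 mouse 1 the KO call was just lost (adjusted p = 0.0503), and without KO day 21 mouse 1 C5ar1 was also called lower at KO day 21 (log2 -0.73, adjusted p = 0.0159). The read ratio of C3ar1 to C5ar1 went from 0.00169 in naive WT and 0.00338 in naive KO mice to 1.17 ± 0.0909 and 1.38 ± 0.562 at day 7, and was 0.516 and 0.231 at day 14 and 0.321 and 0.419 at day 21.

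Marker genes of other cells moved with these changes. In these bulk samples, more cells of a type and more RNA per cell cannot be told apart. The summed level of 8 monocyte markers was 10.1 to 18 CPM in naive mice, 630 to 896 at day 7, 69.3 to 357 at day 14 and 91.1 to 419 at day 21, and 8 of 8 were called higher at each day in WT mice and at day 7 in KO mice. The 13 interstitial macrophage markers, of which 11 were tested, summed to 272 to 324 CPM in naive and 1033 to 5144 CPM in bleomycin mice, most of it Apoe at the later days, with 10 of the 11 called higher at each day in WT mice and the defining markers Cd163 (at most 0.95 CPM) and Lyve1 (at most 0.39 CPM) near 0. Of 15 resident alveolar macrophage markers, Siglecf included, edgeR called 12, 11 and 9 lower in WT mice at the 3 days and 11, 3 and 0 in KO mice, where the list's median log2 change at day 21 was -0.51. T and NK cell markers summed to 0.646 to 1.71 CPM in naive mice and 6.42 to 52 CPM after bleomycin, the highest in KO day 21 mouse 2. Summed neutrophil markers were 107 to 160.5 CPM in naive and 133 to 372 CPM in bleomycin mice, dendritic cell markers 3.11 to 6.59 and 4.16 to 22.3 CPM, and epithelial markers 50.7 to 142 and 18.4 to 162 CPM. The epithelial sum did not follow the single markers, whose median log2 change against naive was 1.81 to 5.01. Of 10 epithelial markers edgeR called 5, 3 and 8 higher in WT and 0, 5 and 4 in KO mice at the 3 days. It called 1 lower at each day except KO day 21, with 0. The highest epithelial sum was that of WT day 7 mouse 3, with Sftpc at 85.3 CPM. The list of 9 recruited fibrosis-associated macrophage markers went from 5723 to 6881 CPM in naive mice to 12680 to 34010 CPM. Their part in the complement changes was not tested.

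Between the genotypes none of the 9 genes was called at any time. In naive mice edgeR called 0 members beside 0.546% of all genes, with 0 members at an unadjusted p under 0.05, and DESeq2 and limma-voom called 0. Cfb of the naive KO mice (128 to 136 CPM) lay below that of the naive WT mice (147 to 214 CPM) without overlap (log2 difference -0.38, edgeR adjusted p = 0.892). At day 7 edgeR again called 0 (0.00792% of all genes, a single gene) with 0 members at an unadjusted p under 0.05. The largest log2 difference at day 7 was that of C4b, 0.64 (95% interval -0.737 to 2.03). It was 0.28 for C1qa (-0.737 to 1.3), 0.22 for C3ar1 (-0.684 to 1.13) and -0.01 for C5ar1 (-0.504 to 0.483). These intervals leave room for differences of about 1 on the log2 scale for C1qa and C3ar1 and of up to 2.03 for C4b, so the data do not show that the genotypes were alike.

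At day 14 the C1q chains and C3ar1 were at lower and C4b at higher levels in KO mice without passing the threshold. The 3 KO mice lay below the 3 WT mice for C1qa, C1qb, C1qc and C3ar1 and above them for C4b. The share of all genes that separated in this way was not counted. The C1q chains and C3ar1 ran together over the bleomycin mice (r = 0.889 to 0.998), so they are not 4 separate results. The log2 difference was -1.36 (SE 0.497, adjusted p = 0.318) for C1qa, -1.16 (adjusted p = 0.444) for C1qb, -1.31 (adjusted p = 0.376) for C1qc and -1.17 (adjusted p = 0.333) for C3ar1. For C4b it was 1.36 (SE 0.666, 95% interval -0.0296 to 2.74, adjusted p = 0.516). edgeR called 0 members here beside 0.135% of all genes, and DESeq2 and limma-voom also called 0. In edgeR 4 members (the C1q chains and C3ar1) had an unadjusted p under 0.05, as did 1269 of all 12634 genes. Without KO day 14 mouse 3 the difference was -0.97 (adjusted p = 0.931) for C1qa and -0.81 (0.951) for C3ar1, and without mouse 2 it was -1.33 (0.658) and -1.12 (0.674). For C4b it was 1.37 (0.947) without mouse 3 and 1.59 (0.668) without mouse 2. Over 12 alternatives the difference of C1qa ran from -1.92 to -0.965, at adjusted p-values of 0.076 to 0.93. That of C3ar1 ran from -1.72 to -0.813 (0.069 to 0.95) and that of C4b from 1.08 to 1.59 (0.15 to 0.95). None of these alternatives called them. The summed monocyte markers were at 202.8 to 357 CPM in these WT mice and at 69.3 to 192 CPM in the KO mice, and the interstitial markers at 2954 to 5144 and 1111 to 2625 CPM. Their part in the difference was not tested.

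**Figure D3:**
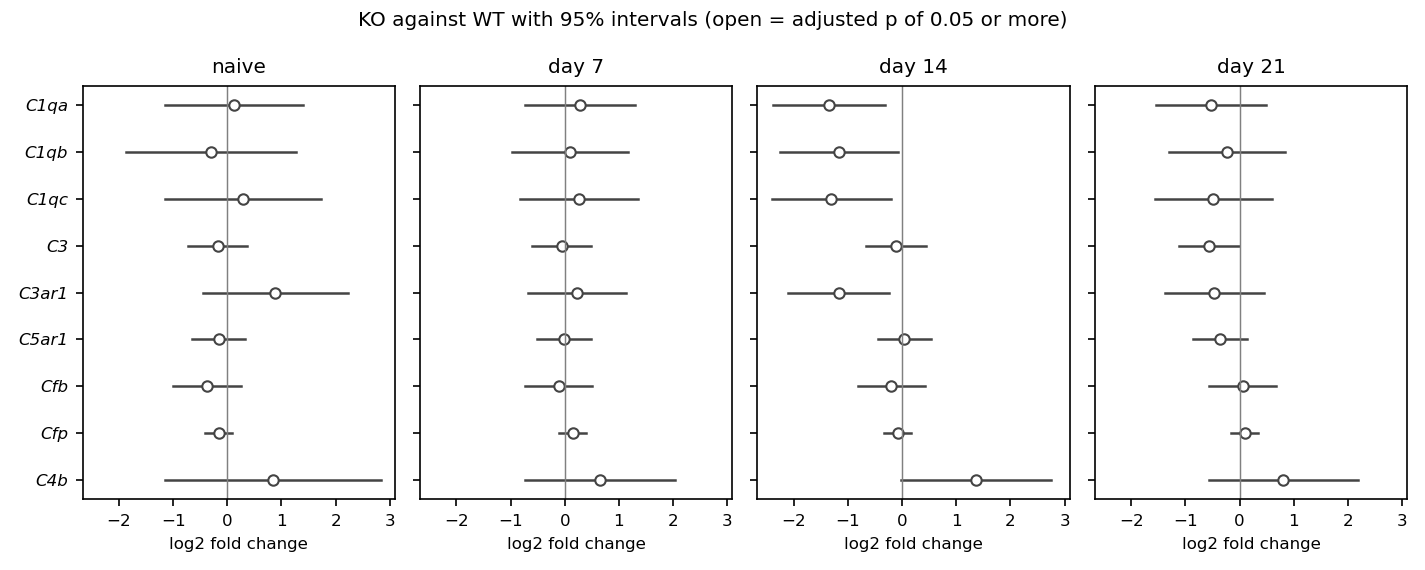
Log2 fold change of KO against WT mice (x axis) in naive mice and at days 7, 14 and 21, with 95% intervals, for the 9 genes (rows). At day 14 the intervals of the C1q chains and C3ar1 lie below 0 and that of C4b reaches from -0.0296 to 2.74, and no point passed the adjusted threshold.

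At day 21 the KO mice ranged widely. C1qa was at 140, 776 and 464 CPM in KO against 596 to 725 in WT mice (log2 difference -0.53, adjusted p = 0.806), and without KO day 21 mouse 1 the difference was -0.10 (0.977). Over 12 alternatives this difference of C1qa ran from -1.14 to -0.0975 with no call. C3 had the only unadjusted p under 0.05 of the 9 genes (log2 difference -0.57, SE 0.264, adjusted p = 0.495), with KO mouse 2 at 154.5 CPM and the groups overlapping. Without KO day 21 mouse 1 the difference of C3 was -0.83 (adjusted p = 0.294). edgeR, DESeq2 and limma-voom called 0 members, and edgeR called 0.095% of all genes. Averaged over the bleomycin days edgeR again called 0 members (0.507% of all genes), as did DESeq2 and limma-voom. In edgeR 1 member was at an unadjusted p under 0.05, beside 1640 of all genes. The member with the smallest p was C4b, 0.94 higher in KO mice on the log2 scale (SE 0.382, 95% interval 0.141 to 1.73, adjusted p = 0.287). Over 24 alternatives this difference of C4b ran from 0.503 with limma-voom to 1.12, at adjusted p-values of 0.026 to 0.67, and 1 of the 24 called it (without KO day 21 mouse 1, adjusted p = 0.0255). With limma-voom the members at an unadjusted p under 0.05 were instead the 3 C1q chains and C3ar1.

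The size of the response to bleomycin was also compared between genotypes, as an interaction term. edgeR called 0 members at day 7, 14 and 21, beside 0.00792%, 0.332% and 0.332% of all genes, and DESeq2 and limma-voom called 0 on each day. The count of members at an unadjusted p under 0.05 was 0, 1 and 0, beside 776, 1299 and 1361 of all genes. The 1 member was C3ar1, whose day 14 response was smaller by 2.06 on the log2 scale in KO mice (-2.057, SE 0.777, 95% interval -3.67 to -0.438, adjusted p = 0.318). Without KO day 14 mouse 2 it was -1.99 (adjusted p = 0.508), without mouse 3 -1.70 (0.569), and over 18 alternatives it ran from -2.6 to -1.53 with no call. The responses of Cfp differed by 0.31 at day 7 (SE 0.17, adjusted p = 0.896) and those of C4b by 0.52 at day 14 (SE 1.17, adjusted p = 0.947), an interval of -1.92 to 2.96.

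Between day 7 and day 21 edgeR called C4b higher in both genotypes and C3ar1 lower in KO mice. C3ar1 was also lower in WT mice without a call over the 8 groups. Each C4b call was lost in several of the alternatives given below. In WT mice day 21 against day 7 called 2 members higher, where 5.49% of all genes were, and 0 lower, where 6.15% were. These were C4b (log2 2.26, SE 0.688, adjusted p = 0.0365) and C5ar1 (0.80, SE 0.238, adjusted p = 0.0325), the latter a return towards the naive level. Leaving out mice ended these calls: C4b was lost without WT day 7 mouse 1 (adjusted p = 0.115) or mouse 3 (0.116) or any of the 3 day 21 mice (0.0604 to 0.0879) and with limma-voom (0.0722), and C5ar1 without day 7 mouse 2 (0.103) or mouse 3 (0.0909) or day 21 mouse 2 (0.149) or mouse 3 (0.0629). C3ar1 was lower by 1.07 on the log2 scale (-1.073, adjusted p = 0.122), with every day 21 mouse below every day 7 mouse, and a fit to the compared groups alone called it (adjusted p = 6.19e-04).

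The steps between neighbouring days in WT mice held fewer calls. From day 7 to day 14 edgeR called 0 members (5.85% of all genes, 0 members at an unadjusted p under 0.05), and DESeq2 and limma-voom called 0. A fit to those groups alone called C3ar1 lower (log2 -0.76, adjusted p = 0.0256) and C4b higher (1.34, adjusted p = 0.016). From day 14 to day 21 edgeR called 0 members and 0.0% of all genes, with 488 genes and 0 members at an unadjusted p under 0.05, while DESeq2 called 7 genes and 0 members. A fit to those groups alone called C4b higher (log2 0.92, adjusted p = 0.0362). The C1q chains of the WT day 21 mice lay below those of days 7 and 14 without overlap (log2 -0.57, SE 0.49, adjusted p = 1.0 for C1qa against day 14).

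In KO mice day 14 against day 7 called C1qa (log2 -1.58, SE 0.5, adjusted p = 0.0375) and C3ar1 (-2.15, SE 0.455, adjusted p = 0.00305) lower and C4b (2.06, SE 0.681, adjusted p = 0.0459) higher. That is 2 members lower where 8.22% of all genes were and 1 higher where 6.79% were. C1qb (-1.15, adjusted p = 0.147) and C1qc (-1.50, adjusted p = 0.0613) were not called by edgeR over all mice, so the call on C1qa does not set it apart from the other chains. limma-voom called C1qc lower (-1.67, adjusted p = 0.0257), and edgeR did so without KO day 7 mouse 3 (0.0375) or KO day 14 mouse 1 (0.0192), the latter also for C1qb (0.0439). C5ar1 was called higher in a fit to the compared groups alone (log2 0.51, adjusted p = 0.0394). The C3ar1 call held without any single mouse, whereas C1qa was lost without KO day 7 mouse 1 (adjusted p = 0.135) or mouse 2 (0.108) or KO day 14 mouse 2 (0.108) or mouse 3 (0.163), and in a fit to the compared groups alone (0.0838). C4b was lost in each of the 6 fits without 1 of these mice (0.0581 to 0.195) and with limma-voom (0.06).

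From day 7 to day 21 in KO mice C3ar1 was lower (log2 -1.76, SE 0.448, adjusted p = 0.0107) and C4b higher (2.42, SE 0.689, adjusted p = 0.0211), 1 member each way where 7.73% of all genes were lower and 7.16% higher. C3ar1 missed the threshold without KO day 7 mouse 1 (adjusted p = 0.0501) and C4b without that mouse (0.114), without KO day 21 mouse 2 (1.38, adjusted p = 0.161) or with limma-voom (1.56, 0.192). A fit to the compared groups alone called neither (0.108 and 0.229). Without KO day 21 mouse 1 C3ar1 was lower by 1.38 on the log2 scale (-1.378, adjusted p = 0.0398) and C4b higher by 2.98 (adjusted p = 1.65e-04). C1qa, at -1.32 (adjusted p = 0.0799), was called lower by limma-voom (-1.55, adjusted p = 0.0318) and by edgeR without KO day 7 mouse 3 (0.0452) or KO day 21 mouse 2 (0.0201). Leaving out the latter also called C1qc lower (0.0344) and C5ar1 higher (0.0109). Between days 14 and 21 edgeR called 0 members and 0.0% of all genes, with 724 genes and 1 member (C3, log2 -0.58, adjusted p = 0.841) at an unadjusted p under 0.05, while DESeq2 called 24 genes and 0 members. Monocyte markers stood at 630 to 896 CPM in KO mice at day 7 and at 69.3 to 192 CPM at day 14, alongside the lower C3ar1 and C1qa. In WT mice these markers went from 739 to 807 CPM at day 7 to 202.8 to 357 CPM at day 14. There the log2 change from day 7 to day 14 was 0.06 for C1qa and -0.76 for C3ar1, neither called over the 8 groups. The part of the monocyte markers was not tested.

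Over the 18 bleomycin mice the C1q chains and C3ar1 ran together. These correlations of log2 CPM are descriptions across mice that share groups, libraries and scaling. C1qa ran with C1qc (r = 0.998), C1qb (0.974) and C3ar1 (0.944). C4b did not run with C1qa (r = -0.144) or C3ar1 (-0.34), and its highest r among the members was with Cfb (0.557). Cfb itself had a higher r with C1qb (0.738), C1qc (0.629) and C1qa (0.602). C5ar1 ran against the C1q chains (-0.546 with C1qa) and against C3ar1 (-0.64), and C3 against Cfp (-0.7). With naive mice included, C1qa and C4b had an r of 0.85 over 24 mice, since both were near 0 in naive mice.

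**Figure D4:**
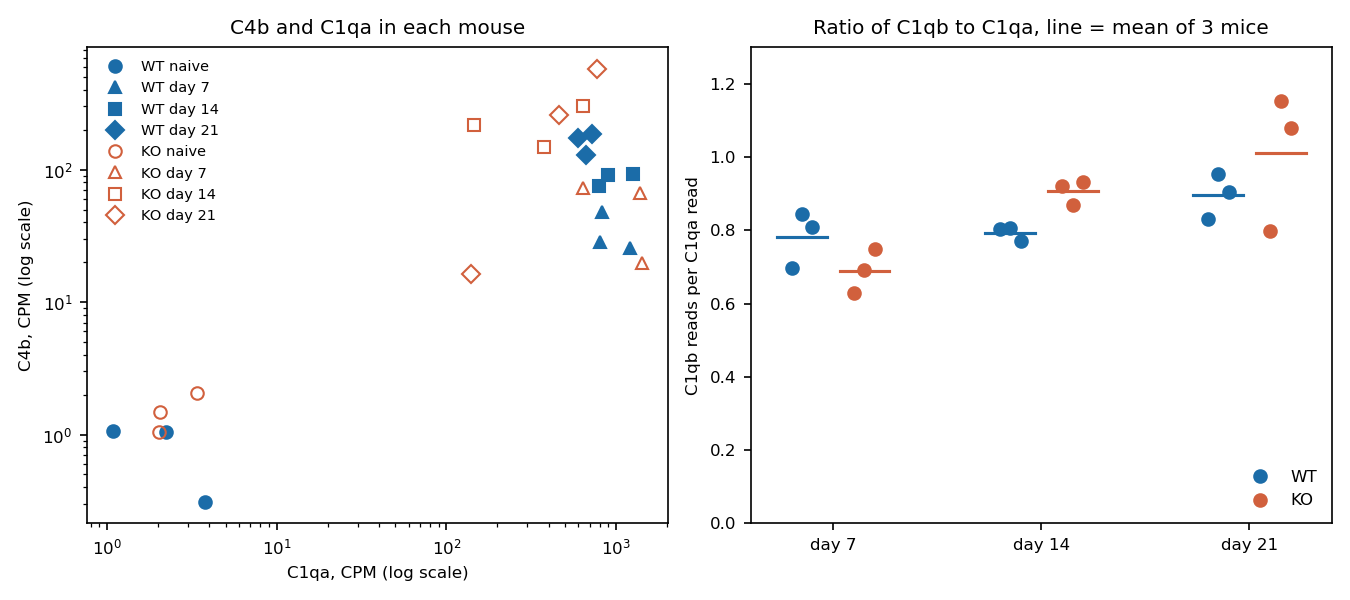
Left, C4b against C1qa in each mouse, both in CPM on log axes, with shape for day and filled or open symbols for WT or KO. Right, C1qb reads per C1qa read in each bleomycin mouse, with a line at the mean of 3. C4b spans 16.2 to 579 CPM among bleomycin mice, of which the low C1qa mice at KO day 14 and day 21 hold 216 and 16.2 CPM, and the KO day 14 ratios of 0.870 to 0.932 lie above the WT day 14 ratios.

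The genes whose pattern over the 18 bleomycin mice was most like a member's were listed, 5 per pattern. For the mean of the C1q chains these were Apoc2 (r = 0.979), an apolipoprotein gene, Lacc1 (0.972), Lgmn (0.969), which encodes a lysosomal protease, Fam213b (0.955) and Snx8 (0.955). For C3ar1 they were Cmklr1 (0.982), the chemerin receptor, Tlr1 (0.977), Kcnn4 (0.972), Bst2 (0.972) and Aif1 (0.97). For C4b they were Ablim1 (0.968), Plod1 (0.945), Myo10 (0.925), Epas1 (0.923) and Cspg4 (0.915). For C5ar1 the nearest was Tmem230 (0.925) and for C3 Zmynd8 (0.92). For Cfb they included Fam129b (0.921), Ets1 (0.917) and the T cell gene Cd3e (0.883), and for Cfp the highest r was 0.806 (Chmp1a). The r of these named genes over all 24 mice was 0.921 to 0.979 for C1q, 0.878 to 0.996 for C3ar1, 0.89 to 0.977 for C4b, 0.818 for Tmem230, 0.885 for Zmynd8, 0.924 to 0.963 for the Cfb genes and 0.625 for Chmp1a. Over all 24 mice 0 of the 5 genes for C1q stayed among the 5 most alike, 4 for C3, 2 each for C3ar1, C5ar1, Cfb and C4b, and 1 for Cfp.

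A wider set of 44 other complement genes was read the same way, of which 20 passed the filter and 24 did not. The 24, among them Cfd (factor D), Cfi, Serping1, the mannose-binding lectins and C6 to C9 apart from C8g, reached at most 0.305 CPM in any mouse. Of the 20, edgeR called 5, 9 and 9 higher and 2, 1 and 1 lower at days 7, 14 and 21 in WT mice, and 7, 9 and 10 higher and 2, 1 and 0 lower in KO mice. The medians of their log2 changes were 0.538, 1.16 and 1.13 in WT and 0.626, 0.914 and 0.949 in KO mice. Leaving out 2 genes with no counts in the naive group of that genotype, whose fitted changes are not measured folds, the medians were 0.0786, 0.755 and 0.973 in WT and 0.218, 0.833 and 0.892 in KO mice. The shares of all genes called higher were 20.2%, 18.7% and 18.8% in WT and 19.7%, 12.0% and 15.0% in KO mice. Those called lower were 15.3%, 13.4% and 13.7% in WT and 14.4%, 4.84% and 6.89% in KO mice.

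Of 5 tested genes that start the cascade, 3 rose at each day in WT mice, and in KO mice 3 rose at day 7 and 4 at days 14 and 21. C1ra, a protease that works with C1q, was at 45.4 to 56.3 CPM in naive and 69.6 to 121 CPM in bleomycin mice (log2 0.60 to 1.08). Fcna, a ficolin of the lectin route, went from 0.139 to 0.345 CPM to 2.57 to 41.4 CPM, with KO day 21 mouse 2 the highest. C1s1, the partner protease, had 0 counts in all but 1 naive mouse and at most 1.04 CPM after bleomycin. C2 was at 0.483 to 5.61 CPM in naive and 1.12 to 8.89 CPM in bleomycin mice and was called by edgeR at no day, by DESeq2 at WT day 7 and by limma-voom at KO day 14. Colec12, a collectin scavenger receptor, was called higher in KO mice at days 14 and 21 (log2 0.99 and 1.40, adjusted p = 0.0448 and 0.00481).

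Both tested terminal genes, Hc (encoding C5) and C8g, stayed at or under 1.13 CPM in every mouse. edgeR called 0 of the 2 in each comparison, and the count at an unadjusted p under 0.05 was 1 in WT mice at day 14 (C8g) and in KO mice at days 14 and 21 (Hc). DESeq2 called those 3 changes higher and limma-voom none. The gene for the C5a receptor, C5ar1, was at 195 CPM or more in every mouse.

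Among 13 receptor and regulator genes, edgeR called 2, 6 and 6 higher at the 3 days in WT mice, beside 20.2%, 18.7% and 18.8% of all genes. In KO mice it called 4, 5 and 6 higher, beside 19.7%, 12.0% and 15.0%. At WT day 7 the count of 2 was not above the share of all genes, and 2 others were called lower. Itgam, the alpha chain of complement receptor CR3, was at 3.48 to 4.89 CPM in naive mice, 233 to 524.1 at day 7 and 23.9 to 201 at the later days. Its partner chain Itgb2 rose at days 14 and 21 (log2 0.32 to 0.43). Clu, which encodes the fluid-phase regulator clusterin, had counts in 1 naive mouse only (0.117 CPM) and reached 2.54 to 33.6 CPM at days 14 and 21. Cd93, once described as a C1q receptor, was called higher by edgeR in every comparison with naive except KO day 21, where DESeq2 and limma-voom called it. Cd59a, a membrane inhibitor, was called higher by edgeR in every one except WT day 7, at up to 1.81 CPM. The regulators Cd55 (called at WT days 14 and 21) and Vsig4 (called at KO day 21, where mouse 2 was at 5.19 CPM) were otherwise at or under 0.529 CPM in every mouse. Lrp1, a scavenger receptor that can bind C1q, was at 1466 to 1571 CPM in naive KO and 2716 to 3177 CPM in KO day 21 mice, its only call against naive (log2 0.92, adjusted p = 0.00649). The low genes Fcna, Clu and Cd59a were called against naive at no day by limma-voom.

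The genes that fell were few. Itgax, the alpha chain of CR4 and a resident marker, fell by 0.86 on the log2 scale at day 7 in WT and by 0.75 in KO mice. C5ar2, the second C5a receptor, fell by 0.38 and 0.48 at day 7, as did C5ar1. C1qbp, which encodes a mitochondrial protein that binds C1q, fell by 0.40 at day 14 and 0.37 at day 21 in WT and by 0.37 at day 14 in KO mice. Between the genotypes edgeR and limma-voom called 0 of the 20 at any time, and DESeq2 called Lrp1 higher in KO mice at day 21 and Itgb2 lower over the bleomycin days. Over all 12634 genes, 1053 were at an unadjusted edgeR p under 0.05 in naive mice, 580 at day 7, 1269 at day 14 and 1236 at day 21. Of the 20, the count was 0 in naive mice, 2 at day 7, 4 at day 14 (C2, Colec12, Itgam and Itgb2) and 4 at day 21 (Calr, Colec12, Itgax and Lrp1). At day 14 Itgam had the smallest adjusted p of these (0.178, log2 difference -1.47).

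**Figure D5:**
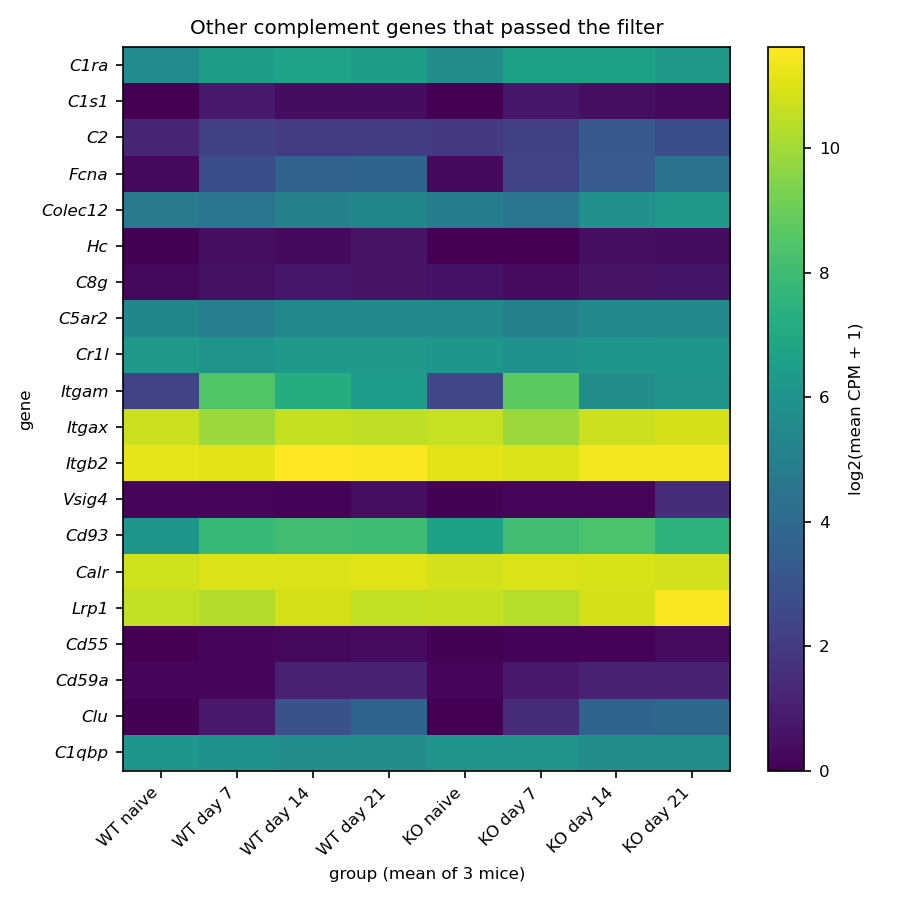
Colour gives log2(mean CPM + 1) of the 20 other complement genes that passed the filter (rows), as the mean of 3 mice in each of the 8 groups (columns). Itgam, Fcna and Clu change colour between naive and bleomycin groups, while Itgb2 and C5ar2 keep nearly the same colour.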

How the data were processed

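RNA from lavage macrophages of 24 mice was read from the authors' deposited table of expected counts (estimated counts per gene, not whole in 3.11 to 3.85% of entries), 1 column per mouse. Another 24 columns of other samples were not used. The labels list 2 sequencing runs for a mouse. Not given in the sources used here are the aligner, the counting tool, the use of strand and whether a column sums both runs. The submitters' processing notes name mm10, bcl2fastq, DESeq2 1.42.0 and limma 3.58.1.

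Expected counts were rounded, genes were filtered with filterByExpr (minimum count 10, minimum total 15), libraries were scaled by TMM, and 1 edgeR 4.0.16 quasi-likelihood model in R 4.3.3 was fitted over the 8 groups (16 residual degrees of freedom). Adjusted p-values are Benjamini-Hochberg over 12634 genes. The method was tested on data simulated for KO against WT mice at day 14 only. Those data held no near-silent naive group, so the simulation does not bear on the changes against naive mice. Alternatives were a replicate block by mouse number, fits to the compared groups only, no filter, RLE scaling, limma-voom, DESeq2 and leaving out each mouse. Labels do not say that equal mouse numbers mark a shared cage or day. Same-numbered mice correlated above 0.1 in all 3 pairs for naive and day 7 WT mice (r = 0.598, 0.433 and 0.183) and in no other pair of groups examined. The edgeR p-values weigh a difference of group means against the spread between mice. That spread is estimated over all 8 groups together and drawn towards that of other genes, so it is not that of the compared groups alone. Where groups of mice are said not to overlap, the share of all genes that separated in this way was not counted. Named genes were the 9 members, Siglecf as the genotype check, the genes of 3 complement lists called in at least 1 comparison of bleomycin with naive or KO with WT, and the 5 tested genes with the highest Pearson r of log2(CPM + 1) with each member over the 18 bleomycin mice (the C1q chains as their mean). Other genes of the lists that are named, and Apoe, Cd163 and Lyve1 among the markers, were chosen after their values were seen. A gene of the complement lists is not reported here and is left out of their counts. Members and lists were chosen with earlier results of these data known.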

Additional observations from a re-analysis of the deposited data

How the results depend on the processing

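Of 180 tests of a member 51 were called by edgeR. Of these calls 34 held under every alternative run, and 17 were ended by at least 1. Another 13 tests, uncalled by the main fit, were called by an alternative. Where the main fit or the alternative made a call, 0 changed sign. Estimates that neither called did change sign in places, such as C1qa between naive genotypes (log2 -0.223 to 0.549). With the replicate block 8 members were called in WT mice at day 7 against naive, as without it, and the block changed no other call of a member. Apart from those 2 groups, equal numbers did not correlate above 0.1 in all 3 pairs, and in no pair of groups did each mouse correlate best with its own number. RLE scaling, no expression filter and DESeq2 changed no call of a member either.

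The number of members called in KO against WT mice averaged over the bleomycin days was 0 to 1 when a mouse was left out. Fits to the compared groups alone called 2 members for WT day 14 against day 7, 1 for WT day 21 against day 14 and 0 for KO day 21 against day 7. For WT day 21 against day 7, limma-voom called 1, and leaving out a mouse gave 0 to 1. Leaving out a mouse gave 1 to 4 for KO day 14 against day 7 and 0 to 4 for KO day 21 against day 7. The cause was not tested.

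Counts over all genes against naive stayed within 1.5 times under every alternative for WT days 7, 14 and 21 and KO day 7. By edgeR these were 4481, 4059, 4102 and 4308. In the other comparisons the counts moved by more than 1.5 times under at least 1 alternative. With DESeq2 they were 163 (69 by edgeR) between naive genotypes, 15 (1) at day 7, 143 (17) at day 14, 132 (12) at day 21, 262 (64) over the bleomycin days, and 39 (1), 214 (42) and 262 (42) for the response differences. WT day 14 against day 7 gave 1128 (739). Fits to the compared groups alone gave 34 between naive genotypes, 3 at day 14, 2 at day 21, 27 over the bleomycin days, 3, 8 and 22 for the response differences, 1347 for KO day 21 against naive (2765), and 417, 1235 and 403 for WT day 14, KO day 14 and KO day 21 against day 7 (739, 1897 and 1880). The replicate block gave 8 at day 14 and 38 between naive genotypes. From day 14 to 21, where edgeR called 0, DESeq2 gave 7 in WT and 24 in KO mice and the compared groups alone 9 in WT. Leaving out a mouse gave 11 to 72 between naive genotypes, 1 to 246 at day 14, 1 to 74 at day 21, 29 to 269 over the bleomycin days and 0 to 3, 6 to 227 and 0 to 83 for the response differences. It gave 1280 to 2319 (2132) and 1742 to 3792 (2765) for KO days 14 and 21 against naive, 309 to 812 (739) and 876 to 1476 (1471) for WT days 14 and 21 against day 7, 910 to 2042 (1897) and 981 to 1956 (1880) for KO mice, and 0 to 25 for KO day 21 against day 14. The background shares move with these counts.

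Counts of C1q, C3ar1 and C4b in naive mice limit the precision of their fold changes, and 3 mice a group leave intervals of about 1 log2 unit either side for C1q and C3ar1 between genotypes after bleomycin, and wider ones in naive mice (-1.88 to 1.26 for C1qb).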
